A study of Mus musculus with 6 samples.

Results

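The genes described here are those of the transforming growth factor beta (TGF-beta) pathway proper: the ligands Tgfb1 and Tgfb3, the receptors Tgfbr1, Tgfbr2 and Tgfbr3, the signal carriers Smad2, Smad3 and Smad4, and the inhibitors Smad7 and Ldlrad4. They are 10 of the 34745 genes of the deposited expression table, taken by symbol, each matched by a single gene ID. They were selected on their counts and FPKM in these same libraries, with the contrast of PM2.5 against PBS already known, so their changes are given as a description, with no p-value. Their levels were measured by RNA-seq in mouse CD4 T cells. The PM2.5 group holds 3 libraries of cells that received fine airborne particles (PM2.5) in suspension at 100 µg/ml from 6 h of stimulation onwards, and the PBS group holds 3 libraries of cells mock-treated with PBS. All 6 came from naive CD4 T cells of the spleen of female C57BL/6 mice aged 6 weeks, kept for 4 days on plate-bound antibodies to CD3 and CD28 in a Th17-polarising mixture, the conditions that steer T helper cells towards IL-17 production. That mixture held IL-6 (20 ng/ml), IL-23 (10 ng/ml), IL-2 (5 ng/ml) and antibodies to IFN-gamma and IL-4 (5 µg/ml each). It also held TGF-beta protein itself (2 ng/ml), so the cells of both groups were given the ligand. Whether replicates were separate animals, pools or cultures is not given in the sources used here, so the spread between libraries may be technical.

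TGF-beta is secreted as a latent complex that must be freed before it can act. The active ligand binds the type II receptor (Tgfbr2), which phosphorylates the type I receptor (Tgfbr1); the type III receptor (Tgfbr3, betaglycan) presents ligand to them. Tgfbr1 then phosphorylates Smad2 and Smad3, which join Smad4 and enter the nucleus to regulate transcription. Smad7 is induced by the pathway and blocks it at the receptor, and Ldlrad4, described mainly in human cell lines, is a membrane protein that keeps Smad2 and Smad3 from the receptor. In T cells the pathway is needed for the induction of regulatory T cells and, together with IL-6, of Th17 cells.

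Library totals were 25397965 to 27215853 counts in the PM2.5 group and 19511561 to 22353131 counts in the PBS group. The cells expressed Cd4 (323 CPM in the PM2.5 group and 388 CPM in the PBS group). T cell markers summed to 2136 to 2155 CPM in the PM2.5 libraries and 2790 to 2844 CPM in the PBS libraries, Th17 markers to 2301 to 2775 CPM in the PM2.5 libraries and 3316 to 3365 CPM in the PBS libraries, and regulatory T cell markers to 2685 to 2704 CPM in the PM2.5 libraries and 2700 to 2812 CPM in the PBS libraries. That last sum joins 2 higher and 2 lower genes. Ctla4 stood at 1283 CPM in the PM2.5 group and 399 CPM in the PBS group. Il2ra stood at 1434 CPM in the PM2.5 group and 2229 CPM in the PBS group. The T cell sum joins 1 higher gene, Cd5, and 5 lower genes. The Th17 sum joins 5 lower genes and Il23r, which did not pass. Of the markers of other cells, those of B cells summed to 0.236 to 0.441 CPM in the PM2.5 libraries and 1.02 to 1.70 CPM in the PBS libraries, with Ms4a1 at 0 in all, and those of macrophages and monocytes to 2.90 to 3.37 CPM in the PM2.5 libraries and 4.74 to 6.18 CPM in the PBS libraries, with Lyz2 at 0. Dendritic cell markers summed to 0.191 to 0.394 CPM in the PM2.5 libraries and 0.564 to 0.671 CPM in the PBS libraries, with Siglech and Clec9a at 0. Neutrophil markers reached 0.551 to 0.651 CPM in the PM2.5 libraries, against 5.28 to 6.27 CPM in the PBS libraries, all from Ly6g, with S100a8, S100a9 and Elane at 0. Platelet markers gave 2.02 to 2.24 CPM in PM2.5 and 2.24 to 2.67 CPM in PBS libraries, with Pf4, Ppbp and Gp9 at 0, and erythroid markers 0 CPM in PM2.5 and at most 0.135 CPM in PBS libraries. NK cell markers summed to 25.5 to 27.5 CPM in PM2.5 libraries and 17.8 to 20.0 CPM in PBS libraries, with Ncr1 at 0, Nkg7 higher in the PM2.5 group and the other 2 tested, Klre1 and Gzma, lower. The markers of CD8 and gamma-delta T cells summed to 25.7 to 29.2 CPM in PM2.5 libraries and 57.8 to 59.8 CPM in PBS libraries. Of these, Cd8b1 was higher in the PM2.5 group, and Cd8a, Trdc and Tcrg-C1 were lower. Stromal and endothelial markers summed to 47.3 to 50.6 CPM in PM2.5 libraries and 82.6 to 88.1 CPM in PBS libraries, nearly all Pecam1. The part of these markers in the results below was not tested.

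The regulatory sequence of 4 of the 10 genes, Tgfb1, Tgfbr1, Tgfbr2 and Smad3, was available in the RefSeq promoter table of build GRCm38.p6, the mm10 assembly. It is shown for these 4 because the other members had no sequence there. All 4 were lower in the PM2.5 group, as were some members with no sequence. Each line gives the 250 bases before the transcription start, 5′ to 3′ on the gene's own strand; capitals mark CAGAC, a sequence that Smad3 and Smad4 can bind, and GCGTG, the core of the element bound by the aryl hydrocarbon receptor, on either strand.
Tgfb1, chr7:25686752-25687001, plus strand: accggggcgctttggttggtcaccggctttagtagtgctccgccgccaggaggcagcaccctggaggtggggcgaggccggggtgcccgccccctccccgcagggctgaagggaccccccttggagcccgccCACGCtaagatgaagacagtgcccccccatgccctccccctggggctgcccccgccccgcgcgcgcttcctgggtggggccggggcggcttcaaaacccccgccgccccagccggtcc
Tgfbr1, chr4:47352972-47353221, plus strand: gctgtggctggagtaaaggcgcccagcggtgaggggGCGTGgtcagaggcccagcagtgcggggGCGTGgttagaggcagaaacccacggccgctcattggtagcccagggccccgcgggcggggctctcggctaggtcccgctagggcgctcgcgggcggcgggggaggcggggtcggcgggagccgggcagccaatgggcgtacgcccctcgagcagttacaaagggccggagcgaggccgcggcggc
Tgfbr2, chr9:116175364-116175613, minus strand: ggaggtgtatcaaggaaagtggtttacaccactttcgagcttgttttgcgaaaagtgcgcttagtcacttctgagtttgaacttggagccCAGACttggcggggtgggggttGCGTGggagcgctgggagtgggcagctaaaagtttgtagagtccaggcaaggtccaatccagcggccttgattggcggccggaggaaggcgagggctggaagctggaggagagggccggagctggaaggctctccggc
Smad3, chr9:63757995-63758244, minus strand: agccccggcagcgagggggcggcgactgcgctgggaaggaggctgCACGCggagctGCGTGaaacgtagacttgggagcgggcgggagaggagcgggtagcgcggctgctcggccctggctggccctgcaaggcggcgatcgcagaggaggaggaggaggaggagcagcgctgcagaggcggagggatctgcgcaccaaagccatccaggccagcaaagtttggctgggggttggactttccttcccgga

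These windows were rich in G and C, at 75.2% for Tgfb1, 74.8% for Tgfbr1, 69.2% for Smad3 and 58.4% for Tgfbr2, against a median of 52.4% over the 32851 windows of the table. GCGTG was found in each of the 4 windows, 2 times in Tgfbr1 and Smad3 and 1 time in Tgfb1 and Tgfbr2. A further RefSeq window of Tgfbr1, at an inner start and not shown, had 0. Over all windows 28.2% hold GCGTG, a share that was not matched for G and C content. CAGAC was found only in Tgfbr2, 160 bases before the start, and in that further window of Tgfbr1, and 42.2% of all windows hold it. The full Smad palindrome GTCTAGAC, the AP-1 motif TGANTCA and TGATGCAA, a form of the element bound by ATF4, were searched on both strands in the same windows and had no match in them, with shares of 0.167%, 6.75% and 0.791% over all windows. CAGAC does not overlap GCGTG in any of the 4 windows. A match is a run of letters and was not measured as a binding site.

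The receptors, the ligands, Smad3 and both inhibitors were lower in the PM2.5 group than in the PBS group, while Smad2 and Smad4 were higher. The 2 largest differences were those of Ldlrad4 and Tgfb3, each about 10.9-fold lower in PM2.5 cultures. Tgfbr1 and Tgfbr2 were 2.74-fold and 2.79-fold lower, Smad3 2.46-fold lower, and Smad2 and Smad4 1.78-fold and 1.81-fold higher. In bulk RNA, fewer cells of a type and less RNA per cell cannot be told apart. All 10 genes passed the filter on low counts and then the edgeR quasi-likelihood test at 0.05 after Benjamini-Hochberg correction, 8 lower and 2 higher, beside 70.6% of the 12967 genes tested that passed in either direction, 35.3% lower and 35.2% higher. Of the 10, 7 were at least 2-fold lower, beside 12.4% of all genes tested. The median log2 fold change of the 10 was -1.38, beside -0.01 over all genes tested. The CPM of the groups did not overlap for any of the 10, beside 74.9% of all genes, 37.4% of them with the lower and 37.4% with the higher values in the PM2.5 group. Since the genes were put forward from this contrast, nothing is read from these counts.

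**Figure D1:**
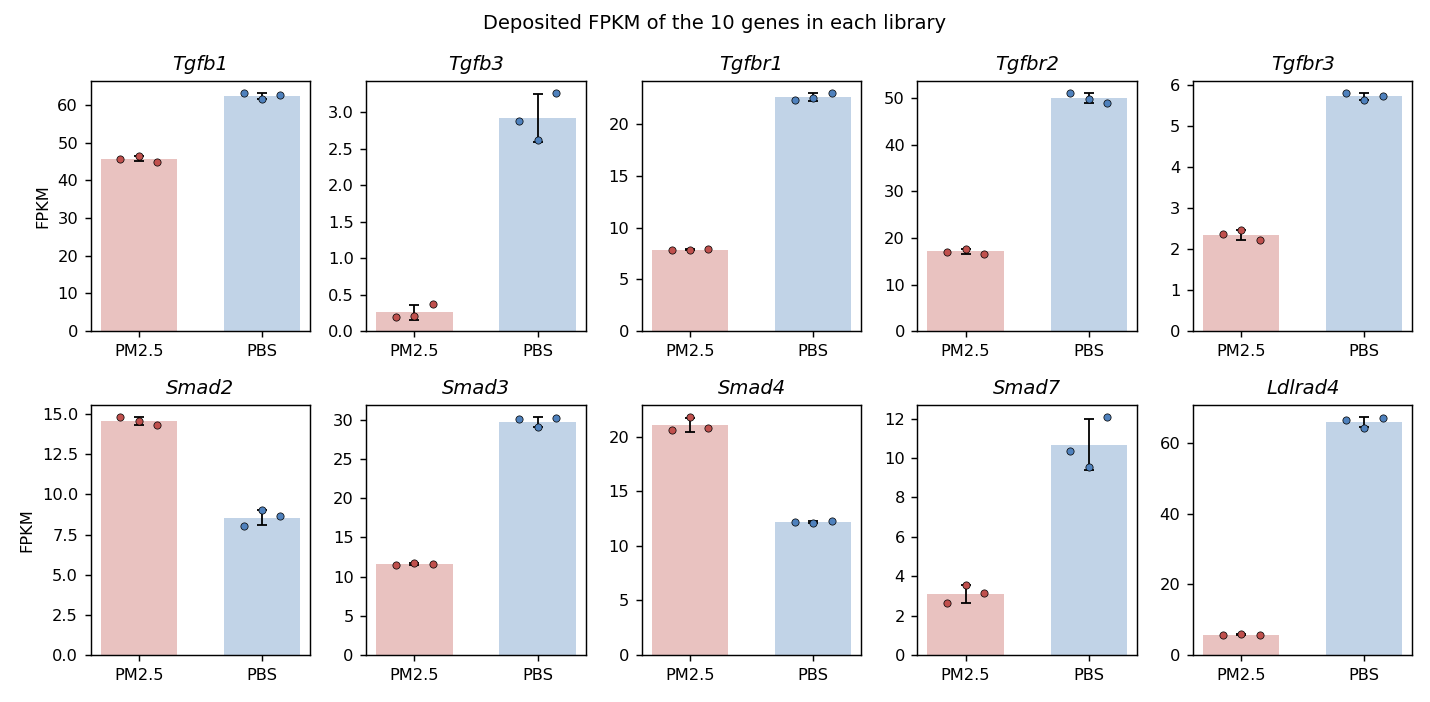
Deposited FPKM (vertical axis, from 0) of each of the 10 genes in the PM2.5 group (red, left) and the PBS group (blue, right); points are the 3 libraries of a group, bars their mean and error bars the SD. The points of the groups do not overlap in any panel, and only Smad2 and Smad4 have the higher bar in the PM2.5 group.

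Tgfb1 encodes the main TGF-beta of lymphocytes (ENSMUSG00000002603, mm10 chromosome 7, 25687002 to 25705077). It had 267, 271 and 263 CPM (counts over the library total, scaled by TMM factors) in the PM2.5 libraries, against 352, 346 and 348 CPM in the PBS libraries. The PM2.5 libraries were all lower, but this was the smallest of the 10 differences, a log2 fold change of -0.39 (SE 0.03), smaller in size than that of most genes tested: it lay at percentile 45.8 of the absolute changes. Tgfb3, a ligand expressed by Th17 cells in mice (ENSMUSG00000021253, chromosome 12, 86056744 to 86079041), had 18, 18 and 32 counts in the PM2.5 libraries, or 0.677, 0.705 and 1.29 CPM, against 216, 173 and 247 counts, or 9.55, 8.72 and 10.8 CPM, in the PBS libraries. The highest PM2.5 library was far below the lowest PBS library. Its log2 fold change was -3.44 (SE 0.20), at percentile 98.8. On log2(FPKM + 1), a scale that draws low values together, the difference of Tgfb3 was -1.64. Tgfb2, the third ligand, is no member; it was left out by the filter on low counts, with 6, 10 and 14 counts in the PM2.5 libraries and 0, 2 and 0 in the PBS libraries.

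Within each library the ligand pool stood differently between the groups. By deposited FPKM (the count over gene length and library total), Tgfb1 exceeded Tgfb3 by a ratio of 234, 228 and 121 in the PM2.5 libraries, against 21.9, 23.5 and 19.2 in the PBS libraries. The third PM2.5 library stood apart from the other two here, as it held more Tgfb3 counts.

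Tgfbr1, the type I receptor kinase that phosphorylates the Smads (ENSMUSG00000007613, chromosome 4, 47353222 to 47414931), had 73.2, 73.7 and 73.9 CPM in the PM2.5 libraries, against 199, 202 and 205 CPM in the PBS libraries. Tgfbr2, its ligand-binding partner kinase (ENSMUSG00000032440, chromosome 9, 116087698 to 116175363), had 83.5, 86.7 and 81.1 CPM in the PM2.5 libraries, against 240, 234 and 228 CPM in the PBS libraries. Both receptors were low in every PM2.5 library, by log2 fold changes of -1.46 (SE 0.03) for Tgfbr1 and -1.48 (SE 0.04) for Tgfbr2. Their ratio within a library differed by less than the spread between replicates: by FPKM, Tgfbr2 over Tgfbr1 was 2.18, 2.24 and 2.09 in the PM2.5 libraries and 2.29, 2.22 and 2.13 in the PBS libraries, ranges that overlap. Which receptor came out as the more abundant changed with the lengths used. With exon lengths from GENCODE M21 this ratio was 0.908 ± 0.031 in the PM2.5 group and 0.926 ± 0.034 in the PBS group (SD, n = 3 each). In GENCODE M21 Tgfbr2 reaches down to 116084293, outside the deposited gene model, so its counts and that length may not match. For Tgfbr1 the lengths differ too, at 9129 bases behind the deposited FPKM and 6534 in GENCODE M21. Tgfbr3, the betaglycan co-receptor (ENSMUSG00000029287, chromosome 5, 107106570 to 107289629), had 18.8, 19.7 and 17.8 CPM in the PM2.5 libraries, against 44.3, 43.2 and 43.4 CPM in the PBS libraries, a log2 fold change of -1.22 (SE 0.06).

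The receptor-activated Smads moved in opposite directions. Smad3 (ENSMUSG00000032402, chromosome 9, 63646767 to 63757994) had 66.9, 68.8 and 68.1 CPM in the PM2.5 libraries, against 169, 164 and 169 CPM in the PBS libraries, a log2 fold change of -1.30 (SE 0.03). Smad2 (ENSMUSG00000024563, chromosome 18, 76241580 to 76305731) had 79.7, 78.5 and 76.8 CPM in the PM2.5 libraries, against 41.3, 46.5 and 44.2 CPM in the PBS libraries, a log2 fold change of 0.83 (SE 0.05). Smad3 was thus low and Smad2 high in every PM2.5 library.

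The balance of this pair differed between the groups. By deposited FPKM the ratio of Smad3 over Smad2 was 0.770, 0.803 and 0.811 in the PM2.5 libraries, against 3.74, 3.23 and 3.50 in the PBS libraries. Their sum was 26.2 ± 0.22 FPKM in the PM2.5 group and 38.3 ± 0.47 FPKM in the PBS group (SD, n = 3 each). Which of the pair came out as the more abundant in PM2.5 cells changed with the lengths used. The lengths behind the deposited FPKM are 5730 bases for Smad3 and 5249 for Smad2, whereas the exons of all GENCODE M21 transcripts join to 5542 and 8781 bases. With these the ratio was 1.38 ± 0.04 in the PM2.5 group and 6.03 ± 0.45 in the PBS group, an alternative added after the data were seen. In GENCODE M21 Smad2 runs on to 76310963, past the end of the deposited gene model. Reads there may be missing from its counts, so these counts and the GENCODE length may not match. The fold between the groups is the same with either set of lengths.

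Smad4, the shared partner that carries the activated Smads into DNA-binding complexes (ENSMUSG00000024515, chromosome 18, 73639009 to 73703780), had 121, 128 and 122 CPM in the PM2.5 libraries, against 68.4, 68.1 and 68.1 CPM in the PBS libraries. Its log2 fold change was 0.86 (SE 0.04), close to that of Smad2. By FPKM, Smad4 over the sum of Smad2 and Smad3 was 0.807 ± 0.021 in the PM2.5 group and 0.318 ± 0.003 in the PBS group (SD, n = 3 each). The libraries of the groups did not overlap in this ratio. With GENCODE M21 lengths it was 1.57 ± 0.04 in the PM2.5 group and 0.523 ± 0.005 in the PBS group. Whether Smad4 came out above the sum in PM2.5 cells thus changed with the lengths used, with the limit given for Smad2 above. For Smad4 itself the length behind the deposited FPKM is 5712 bases, against 3712 in GENCODE M21, with the same gene start and end. Its counts and the GENCODE length may not match either.

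Smad7, the inhibitory Smad (ENSMUSG00000025880, chromosome 18, 75367529 to 75395935), had 20.9, 28.2 and 24.8 CPM in the PM2.5 libraries, against 78.3, 72.7 and 91.1 CPM in the PBS libraries. It varied more within groups than Smad2, Smad3 and Smad4, yet its highest PM2.5 library was well below its lowest PBS library, and its log2 fold change was -1.71 (SE 0.14), 3.28-fold lower. Per unit of Smad2 plus Smad3, by FPKM, Smad7 was 0.119 ± 0.017 in the PM2.5 group and 0.278 ± 0.031 in the PBS group, and with GENCODE M21 lengths 0.257 ± 0.037 in the PM2.5 group and 0.508 ± 0.055 in the PBS group, so the inhibitor was lower also against the Smads it acts beside.

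Ldlrad4, the membrane inhibitor (ENSMUSG00000024544, chromosome 18, 67933257 to 68255549), had 14.7, 15.2 and 14.3 CPM in the PM2.5 libraries, against 163, 158 and 163 CPM in the PBS libraries. These are 390, 389 and 356 counts in the PM2.5 libraries and 3685, 3130 and 3738 in the PBS libraries, and the log2 fold change was -3.45 (SE 0.04). It was place 152 of the 12967 genes tested by size of change. The strand setting of the counting is not given in the sources used here, and in GENCODE M21 the last exon sequence of Ldlrad4, which runs on to 68268630, lies opposite Fam210a over 2798 bases. The gene model of the deposited table ends before Fam210a begins at 68260187, and Fam210a moved the other way, with 76.1, 73.3 and 78.6 CPM in the PM2.5 libraries against 20.4, 23.3 and 20.1 CPM in the PBS libraries. Fam210a was looked at after its values were seen. Ldlrad4, Smad2, Smad4 and Smad7 all lie on chromosome 18, where Smad2 and Smad4 were higher and Smad7 and Ldlrad4 lower.

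**Figure D2:**
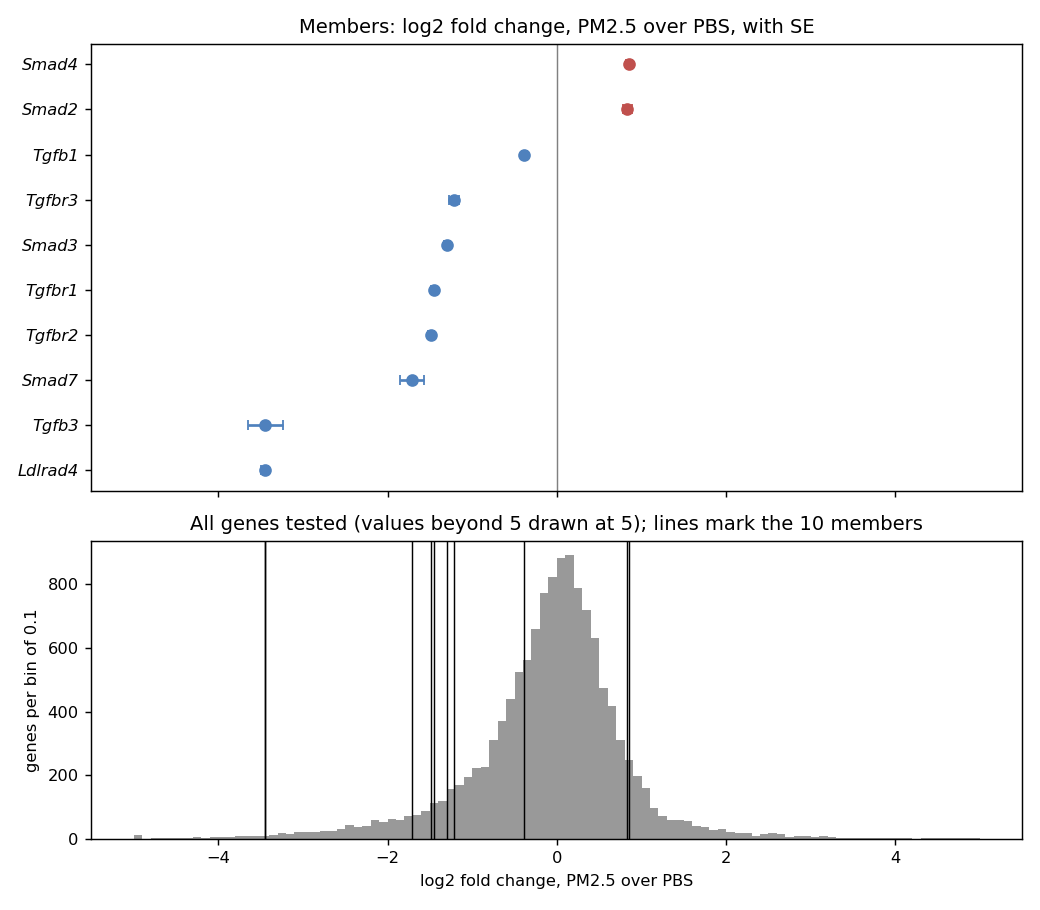
Upper panel: log2 fold change of PM2.5 over PBS with its SE for each of the 10 genes, red where higher and blue where lower in the PM2.5 group. Lower panel: the same quantity for all 12967 genes tested, as a count of genes per bin, with a line for each of the 10 genes. Ldlrad4 and Tgfb3 sit together near -3.45, and Smad2 and Smad4 near 0.85.

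The rank of the genes by level differed between the groups. By deposited FPKM the order in the PM2.5 group was Tgfb1 (45.7 ± 0.69), Smad4 (21.1 ± 0.64), Tgfbr2 (17.1 ± 0.58), Smad2 (14.6 ± 0.26), Smad3 (11.6 ± 0.16), Tgfbr1 (7.88 ± 0.04), Ldlrad4 (5.78 ± 0.18), Smad7 (3.11 ± 0.46), Tgfbr3 (2.35 ± 0.12) and Tgfb3 (0.257 ± 0.10; mean FPKM ± SD, n = 3). In the PBS group it was Ldlrad4 (66.0 ± 1.48), Tgfb1 (62.4 ± 0.75), Tgfbr2 (49.997 ± 1.06), Smad3 (29.8 ± 0.64), Tgfbr1 (22.6 ± 0.38), Smad4 (12.2 ± 0.06), Smad7 (10.7 ± 1.30), Smad2 (8.56 ± 0.49), Tgfbr3 (5.71 ± 0.08) and Tgfb3 (2.92 ± 0.32; mean FPKM ± SD, n = 3). No neighbours in either order overlapped in their libraries. Ldlrad4 took place 7 in the PM2.5 group and place 1 in the PBS group.

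These places depend on the gene lengths. For Ldlrad4 the length behind the deposited FPKM is 2493 bases, whereas its GENCODE M21 exons join to 5371 bases. Part of these exons lies past the end of the deposited gene model, so its counts and the GENCODE length may not match. The same limit holds for Tgfbr2 and Smad2. Lengths also differ where the gene ends agree, most for Smad7 (7727 bases deposited, 4521 in GENCODE), Smad4 (5712 and 3712) and Tgfbr1 (9129 and 6534). With GENCODE lengths for all 10 genes, Ldlrad4 was at place 9 in the PM2.5 group with 2.68 ± 0.08 FPKM, where its libraries overlapped those of Tgfbr3, and at place 4 in the PBS group with 30.7 ± 0.69 FPKM. There Tgfbr1, Smad3, Ldlrad4 and Tgfbr2 lay between 29.2 and 31.6 FPKM, each overlapping the next. Tgfb1 and Smad4 then led the PM2.5 group, and Tgfb1 led the PBS group.

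**Figure D3:**
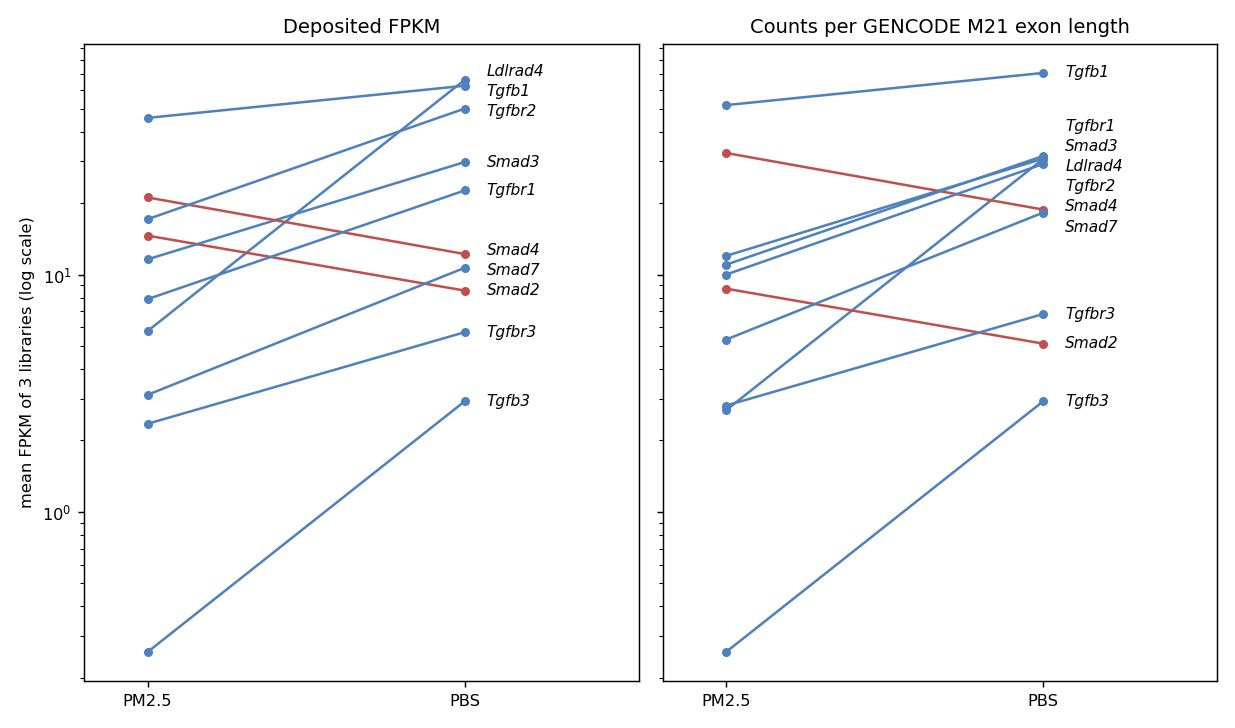
Mean FPKM of the 3 libraries of a group (vertical axis, log scale) for each gene in the PM2.5 group (left end) and the PBS group (right end), blue where lower and red where higher in the PM2.5 group, with the deposited FPKM on the left and the same counts over GENCODE M21 exon lengths on the right; names are spread where lines meet. Ldlrad4 has the steepest line among the more abundant genes, and its place at the PBS end is 1 with the deposited lengths and 4 with the GENCODE lengths.

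The other genes of the pathway were taken from lists by role, 174 genes of which 172 were matched in the table and 128 were tested. Of the 128, 57 were lower (44.5%) and 43 higher (33.6%) in the PM2.5 group at an adjusted p of 0.05, and 28 did not pass, beside 35.3% lower and 35.2% higher among all genes tested. Their median log2 fold change was -0.10, beside -0.01 for all genes. The lists were made with earlier results of these data known, so nothing is read from these shares or from those by role below. The counts by role are given one role at a time, and differences between roles were not tested.

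Of 12 genes of ligand latency and activation that were tested, 8 were lower, 2 higher and 2 failed the threshold, at a median of -0.89. Thbs1, which encodes thrombospondin-1, a protein that can free TGF-beta from its latent complex, fell to 17.6 ± 1.18 CPM in the PM2.5 group, against 211 ± 10.1 CPM in the PBS group, a log2 fold change of -3.58 (SE 0.06, edgeR adjusted p = 1.09e-11). Furin, the protease that cleaves the TGF-beta precursor, fell to 502 ± 4.52 CPM, against 993 ± 44.1 CPM in the PBS group (-0.99, SE 0.03, edgeR adjusted p = 1.98e-09). Lrrc32, which encodes GARP, the surface anchor of latent TGF-beta on regulatory T cells (-1.49, SE 0.12), and the integrin subunit gene Itgb5 (-1.55, SE 0.09) fell as well. The integrin subunit gene Itgb1 rose by 0.23 (SE 0.03, edgeR adjusted p = 5.85e-05). The co-receptor gene Nrp1 did not pass, at 58.7 ± 1.08 CPM in the PM2.5 group and 58.7 ± 1.95 CPM in the PBS group (edgeR adjusted p = 0.989), and the sign of its difference turns with the scaling.

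Of 10 other receptors and co-receptors of the superfamily tested, 6 were lower, 2 higher and 2 failed the threshold, at a median of -0.69. The activin type II receptor gene Acvr2a fell to 25.8 ± 0.48 CPM in the PM2.5 group, against 73.1 ± 3.68 CPM in the PBS group (-1.50, SE 0.05, edgeR adjusted p = 1.95e-09), a change of the size of those of Tgfbr1 and Tgfbr2. Acvrl1, which encodes the type I receptor ALK1 (-2.13, SE 0.14), the co-receptor endoglin gene Eng (-1.25, SE 0.08), the BMP type II receptor gene Bmpr2 (-0.78, SE 0.04) and the activin type I receptor gene Acvr1b (-0.60, SE 0.06) also fell. The 2 higher genes, named outside the rule and after their values were seen, were Acvr2b (1.65, SE 0.30) and Bmpr1a (0.29, SE 0.06). Acvr2b was low in both groups, at 1.51 CPM in PM2.5 and 0.486 CPM in PBS cells. Acvr1 did not pass, at 21.3 ± 3.20 CPM in PM2.5 and 19.8 ± 0.71 CPM in PBS cells (edgeR adjusted p = 0.414). A list of 31 genes joined ligands of the wider superfamily with proteins that block or process them. Of these, 9 had counts high enough to be tested: 5 were lower, 2 higher and 2 failed the threshold, at a median of -0.46. The 5 lower genes include Fst (-4.05, SE 0.25) and Lefty1 (-2.57, SE 0.42), which encode inhibitors. These 2 are named outside the rule and after their values were seen. The activin A subunit gene Inhba rose to 17.6 ± 0.39 CPM in the PM2.5 group, against 9.23 ± 0.38 CPM in the PBS group (0.93, SE 0.07, edgeR adjusted p = 8.12e-07), and Bmp1, a protease that processes matrix proteins, rose by 0.48 (SE 0.04). The ligand genes Gdf6 (-3.22, SE 0.22) and Gdf11 (-0.46, SE 0.08) fell, and Gdf9, at 0.708 ± 0.321 CPM in PM2.5 and 0.315 ± 0.302 CPM in PBS cells, did not pass (edgeR adjusted p = 0.141).

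Of 18 other Smads and nuclear partners tested, 8 were lower, 8 higher and 2 failed the threshold, at a median of -0.02. Smad6, the second inhibitory Smad, fell to 0.756 ± 0.172 CPM in the PM2.5 group, against 5.44 ± 0.90 CPM in the PBS group (-2.84, SE 0.20, edgeR adjusted p = 5.38e-07), in the direction of Smad7. The Smads of the BMP branch, named outside the rule and after their values were seen, differed little: Smad5 was at -0.20 (SE 0.08, edgeR adjusted p = 0.0477) and Smad1 at 0.09 (SE 0.06, edgeR adjusted p = 0.214). The forkhead factors Foxo1 (-0.73, SE 0.03) and Foxo3 (0.78, SE 0.04) moved apart, as did the acetyltransferases Kat2b (-0.66, SE 0.06) and Crebbp (0.43, SE 0.04). Kat2a did not pass, at 70.0 ± 4.39 CPM in PM2.5 and 76.4 ± 3.36 CPM in PBS cells (edgeR adjusted p = 0.0598); it passed as lower in 6 of 13 alternatives, over a range of 0.0104 to 0.248.

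Of 19 receptor adaptors and genes of the non-Smad branch tested, 9 were higher, 4 lower and 6 failed the threshold, at a median of 0.13. Zfyve9, which encodes SARA, the anchor that presents Smad2 and Smad3 to the receptor, rose to 13.3 ± 0.71 CPM in the PM2.5 group, against 5.71 ± 0.78 CPM in the PBS group (1.22, SE 0.11, edgeR adjusted p = 2.48e-06). The ubiquitin ligase gene Traf6 (0.27, SE 0.03), the kinase gene Rock1 (0.38, SE 0.04) and Strap (0.38, SE 0.03), an adaptor that binds Smad7, rose. Fkbp1a, whose product FKBP12 binds the type I receptor and keeps it silent, fell to 179 ± 1.51 CPM, against 290 ± 3.67 CPM in the PBS group (-0.70, SE 0.03, edgeR adjusted p = 6.96e-09). Tab2, a partner of the kinase TAK1, had 314, 316 and 321 CPM in the PM2.5 libraries, against 171, 279 and 160 CPM in the PBS libraries. It did not pass (0.64, SE 0.25, edgeR adjusted p = 0.0810) but stood at 0.94 with an edgeR adjusted p of 8.21e-08 without PBS replicate 2, the library at 279 CPM, where the alternatives gave values between 8.21e-08 and 0.201.

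Of 28 inhibitors and ubiquitin regulators tested, 10 were higher, 8 lower and 10 failed the threshold, at a median of 0.05 and a mean of -0.03 on the log2 scale. Pmepa1, the closest relative of Ldlrad4 and like it an inhibitor of Smad2 and Smad3 activation, fell to 47.2, 53.3 and 55.6 CPM in the PM2.5 libraries, against 212, 193 and 193 CPM in the PBS libraries (-1.94, SE 0.07, edgeR adjusted p = 2.92e-08). The fall was smaller than that of Ldlrad4, and the ratio of Ldlrad4 over Pmepa1 by FPKM was 0.640 ± 0.059 in the PM2.5 group and 1.82 ± 0.09 in the PBS group (SD, n = 3 each). The level of this ratio, unlike its fold between the groups, depends on the gene lengths. Nedd4, the ubiquitin ligase that binds both of them in human cells, fell to 59.2 ± 2.34 CPM, against 123 ± 2.21 CPM in the PBS group (-1.05, SE 0.04, edgeR adjusted p = 4.13e-09). Zeb2, a repressor that binds activated Smads, rose to 36.6 ± 1.83 CPM, against 6.03 ± 0.10 CPM in the PBS group (2.60, SE 0.07, edgeR adjusted p = 3.06e-10), and the ligase gene Itch (0.57, SE 0.03) and the Smad phosphatase gene Ppm1a (0.56, SE 0.04) rose. The repressor gene Ski varied too much to pass, with 253, 258 and 123 CPM in the PM2.5 libraries and 519, 237 and 232 CPM in the PBS libraries (edgeR adjusted p = 0.320).

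Listed target genes of the pathway, which hold genes that TGF-beta induces and genes that it represses in various cells, were lower in 18 of 32 cases and higher in 10, while 4 failed the threshold, at a median of -0.94. At least 2-fold falls made up 14 of the 32 (43.8%), beside 12.4% of all genes, and rises of that size 5 of the 32 (15.6%), beside 6.51% of all genes. Tgfbi, a matrix protein gene named for its induction by TGF-beta, fell to 63.7 ± 1.34 CPM in the PM2.5 group, against 261 ± 14.1 CPM in the PBS group (-2.04, SE 0.04, edgeR adjusted p = 7.47e-11). Spsb1, a ubiquitin ligase adaptor (-2.31, SE 0.04), the chemokine receptor Ccr8 (-2.70, SE 0.05) and the transcription factor Sox4 (-1.85, SE 0.04) fell as well. The transcription factor Bhlhe40 rose to 973 ± 9.61 CPM, against 403 ± 1.95 CPM in the PBS group (1.27, SE 0.02, edgeR adjusted p = 3.62e-11). The growth factor gene Pdgfb did not pass, at 217 ± 5.11 CPM in PM2.5 and 208 ± 8.66 CPM in PBS cells (edgeR adjusted p = 0.139).

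Some further genes, of both directions, were chosen after their values were seen. Itgae, the gene of the integrin CD103, which TGF-beta induces in T cells, fell by 1.45 on the log2 scale (SE 0.07, edgeR adjusted p = 2.31e-08). Skil, an early induced inhibitor, was at 97.0, 71.9 and 96.7 CPM in the PM2.5 libraries and 160, 159 and 153 CPM in the PBS libraries (-0.83, SE 0.13, edgeR adjusted p = 0.00273), and the early response gene Klf10 fell by 2.20 (SE 0.06, edgeR adjusted p = 2.62e-10). Gfi1, a repressor that TGF-beta holds down in mouse Th17 cells, rose by 1.76 (SE 0.28, edgeR adjusted p = 0.00413). Listed genes that TGF-beta induces in other cell types also rose, among them Cyr61 (2.83, SE 0.17), Snai1 (1.36, SE 0.36), Nedd9 (0.85, SE 0.04) and Junb (0.42, SE 0.03), as did Id1 (0.70, SE 0.16). The direction of the listed targets was therefore not uniform.

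**Figure D4:**
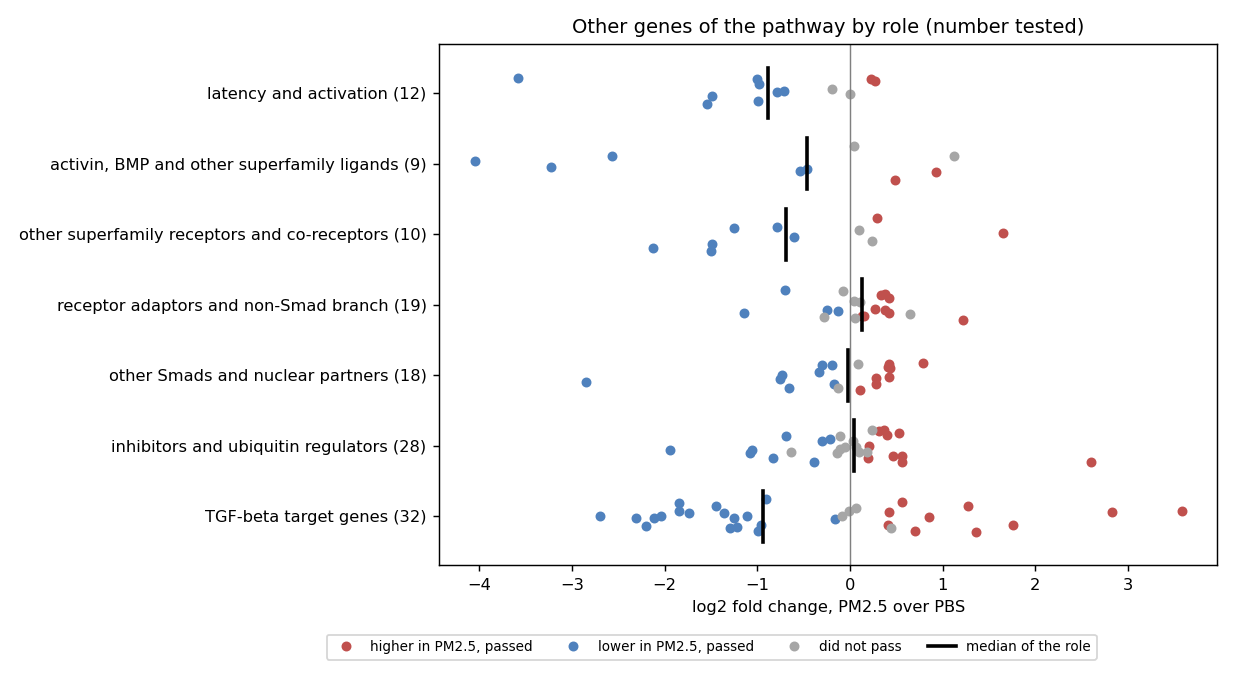
Log2 fold change of PM2.5 over PBS (horizontal axis) for the 128 tested genes of the pathway other than the 10 members, 1 point a gene, in rows by role with the number tested; red points passed as higher in the PM2.5 group, blue points passed as lower, grey points did not pass, and black lines are medians. The medians of latency and activation (-0.89), other receptors (-0.69) and target genes (-0.94) lie left of 0, and those of adaptors (0.13) and inhibitors (0.05) right of it.

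For the 3 members with the largest changes, the genes of most similar pattern were sought among the 9910 genes that averaged 5 CPM or more, by the Euclidean distance of centred log2 CPM over the 6 libraries. The nearest to Ldlrad4 were the phosphodiesterase gene Pde2a (distance 0.080, log2 fold change -3.54), the chemokine receptor gene Cx3cr1 (0.163, -3.55) and the cytokine signalling inhibitor gene Socs3 (0.179, -3.32). Nearest to Tgfb3 were the connexin gene Gja5 (0.433, -3.67), Susd3 (0.437, -3.19) and Kbtbd11 (0.487, -3.54). Nearest to Smad7 were the interferon-inducible GTPase gene Igtp (0.231, -1.70), Rundc3a (0.243, -1.73) and the actin-bundling protein gene Fscn1 (0.244, -1.78). With 2 groups of 3 libraries such likeness mostly reflects a similar fold between the groups.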

How the data were processed

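The authors deposited 1 table with raw counts per Ensembl gene and FPKM for each of 6 libraries, per the file headers. Per the submitters' processing notes, TopHat2 2.0.6 and build mm10 were used. What program, annotation and strand setting produced the counts is not given in the sources used here. For the 9540 genes with over 100 counts in every library, the deposited FPKM equal the count over the library total and 1 length per gene to within 0.000516%. Levels of different genes are compared as FPKM, and changes come from the counts.

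The test of the counts used edgeR 4.0.16 (R 4.3.3): filterByExpr (minimum count 10, minimum total 15) left 12967 of 34745 genes, with TMM scaling, robust glmQLFit and the quasi-likelihood test (two-sided) between PM2.5 and PBS on all 6 libraries, adjusted by Benjamini-Hochberg over all genes tested (threshold 0.05). TMM factors were 0.978 in each PM2.5 library and 1.02 to 1.03 in the PBS libraries. Each SE is the size of the log2 fold change divided by the root of its F, and CPM are TMM-scaled, given as mean ± SD (n = 3 a group); marker sums are scaled by library totals. The procedure was also run on simulated counts in which few genes changed. Most genes passed in these data, so that run cannot show how well the procedure performs here. A count of 0 allows up to 0.113 to 0.151 CPM in a library (3 counts, counting error only). Every pair of replicates differed by more than counting error (chi-square per degree of freedom 7.57 to 9.89), and each library was kept.

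The members and lists were chosen with earlier results of these data known. Named in each role were up to 5 genes with the smallest adjusted p that passed and reached 5 CPM in a group, and the most abundant gene that did not pass. Alternatives were DESeq2 1.42.0, library totals, no filter, a mean of at least 5 CPM, limma 3.58.1 on log2(FPKM + 1) and log2(FPKM + 0.1), each library left out and a replicate block. Of the listed pathway genes, 2 had no match and are not analysed here. The macrophage and monocyte marker Itgam had no match either and is not in the sum of that list. Promoters were read from RefSeq (GRCm38.p6) and exon lengths from GENCODE M21.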

Additional observations from a re-analysis of the deposited data

How the results depend on the processing

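All 10 members kept their direction and passed in each of the 13 alternatives, 130 values in all. The alternatives reuse the libraries from which these genes were put forward, so this describes the processing only and is no independent support. The widest range was that of Tgfb3, -3.79 to -1.64, and the smallest log2 fold changes were those of Tgfb1, -0.45 to -0.37. The count of genes passing was 7342 to 9582 in these alternatives, against 9149. Other pathway genes passed as higher in 34 to 45 cases, against 43, and as lower in 44 to 60, against 57. Scaling by library totals, limma, or testing only genes of 5 CPM or more moved all genes by a median of -0.060 to -0.066 on the log2 scale, so differences of that size turn with the scaling. Nrp1, at 0.001, was at -0.064 with library totals, -0.065 with the filter at 5 CPM and -0.057 and -0.062 with limma on log2(FPKM + 1) and log2(FPKM + 0.1), and at -0.016 to 0.026 with a library left out. Of 530 values of the 41 named pathway genes, 508 kept direction and call, none stopped passing, 14 newly passed and 8, all of Nrp1, turned sign; Gdf6, Gdf9 and Smad6 have no value with the filter at 5 CPM. On log2(FPKM + 1) differences of low genes shrank, with Zeb2 at 0.79, against 2.60. Gdf9, Kat2a, Acvr1, Tab2 and Pdgfb, which did not pass, passed in 1 or more alternatives. GENCODE M21 lengths were added after the data were seen. With them Ldlrad4 took place 9 in the PM2.5 group and 4 in the PBS group, against 7 and 1. The lengths of all 10 genes changed together there. For Tgfbr2, Smad2 and Ldlrad4 the GENCODE exons reach beyond the deposited gene model, so counts and lengths may not match. The lengths of Smad4, Smad7 and Tgfbr1 differed as well, although their gene ends agree, so the same may hold for them. The ratios of levels within a library moved too, by over 1.5 times for Smad3 over Smad2, Tgfbr2 over Tgfbr1 and Smad4 or Smad7 over Smad2 plus Smad3, each with its direction between the groups kept.

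Whether the numbers in the titles pair the libraries could not be decided from the data. Same-numbered libraries deviated together with correlations of 0.013, 0.007 and 0.045. PM2.5 replicates 1 and 3 correlated best with the PBS replicate of the same number, and PM2.5 replicate 2 with PBS replicate 1 (0.0235). Correlations this small cannot show whether libraries share an animal or a batch. With the number as a replicate block, 9002 genes passed, and all 10 members, 42 higher and 55 lower pathway genes. Tgfb3, with 18, 18 and 32 counts in the PM2.5 libraries, had the largest SE of the 10 members (0.20).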
